A study of Mus musculus with 16 samples.

Results

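The Fox and Sox genes encode 2 families of DNA-binding proteins that set cell identity in the embryo and in adult tissues. Members were chosen by name among the autosomal protein-coding genes of the GENCODE M21 annotation, by a symbol of Fox with a letter and a number or Sox with a number, with 1 matching Sox gene left out. The rule itself uses no measured value, but the families were picked with earlier results of these data known. This gave 58 genes, 41 Fox and 17 Sox, of 20807 autosomal protein-coding genes. They were followed in 8 lists of ChIP-seq peaks, 4 for RNA polymerase II (Pol II) and 4 for monoubiquitylated histone H2B (H2Bub1). The lists come from mouse embryonic stem cells (mESCs) and mouse embryonic fibroblasts (MEFs) that were wild type (WT, Atxn7l3+/+) or lacked ATXN7L3 in every cell (KO, Atxn7l3-/-), with 1 library for each combination. ATXN7L3 is the adaptor that activates the deubiquitylases which take ubiquitin off H2B, among them the one in the SAGA co-activator complex. The mESCs of both genotypes were derived from blastocysts and grown with LIF, 15% foetal calf serum and the kinase inhibitors PD0325901 (1 µM) and CH99021 (3 µM). The MEFs of both genotypes came from E10.5 embryos without head and gut and grew in 10% serum, so they can hold several cell types of the trunk.

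Forkhead (Fox) proteins bind DNA through a winged-helix domain and Sox proteins through an HMG box that bends the helix. Both families are split into lettered groups whose members often share tissues, such as Sox C (Sox4, Sox11 and Sox12) in progenitor cells and Sox F (Sox7, Sox17 and Sox18) in endothelium. Pol II collects near the start of a gene before it moves into the body. H2Bub1 is laid down on nucleosomes behind the moving polymerase, so that it lies over the bodies of transcribed genes, and deubiquitylases remove it.

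A Pol II promoter call below means that a deposited peak lay at least in part within 1000 bp of the transcription start site (TSS), upstream or downstream. A body call means that a peak touched the gene beyond that window, and an H2Bub1 call that a peak touched the gene anywhere. The H2Bub1 covered share is the percentage of the gene's length that lies under H2Bub1 peaks. The fold of a peak is its enrichment over the local background of its own library, a linear ratio, so it gives an order within a list and no level that can be carried from 1 library to another. A ratio of KO to WT fold below depends on both backgrounds, and it is a description of these peak lists read beside the same ratio over all genes. With 1 library per group no replicate error exists and no test was made, and each difference is a difference between libraries. Read depth is unknown, and the share of all autosomal protein-coding genes with the same call is given beside the main counts.

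The lists held 11963 to 45870 Pol II peaks and 19725 to 48952 H2Bub1 peaks. In both cell types the KO library had fewer Pol II peaks than the WT library (11963 against 17074 in mESCs, 32232 against 45870 in MEFs) and more H2Bub1 peaks (48952 against 40979, and 28856 against 19725). Atxn7l3 itself kept a Pol II promoter peak in all 4 lists. H2Bub1 covered all of it under 1 peak in WT mESCs and 22.03% under 1 peak in WT MEFs. In KO mESCs and KO MEFs the share was 62.5% and 65.3%, with 2 peaks around stretches of 2750 bp and 2541 bp without a peak. Of 10 stem cell markers, 7 had a Pol II promoter call in each mESC list and 1 and 2 in WT and KO MEFs. Of 10 fibroblast markers, 1 and 0 had one in WT and KO mESCs and all 10 in both MEF lists, with folds that summed to 229 in WT and 121 in KO MEFs. Over all genes called in both MEF lists, the median ratio of KO to WT fold was 0.856. Of 6 mesothelial markers, none had a call in WT MEFs and 5 had one in KO MEFs (Lrrn4, Msln, Upk1b, Upk3b and Wt1, with folds that summed to 92.6). The mesothelial list was drawn up with earlier results of these data known, so its counts are not independent of that choice. Endothelial markers (8 genes) had 2 and 1 calls in WT and KO MEFs, blood markers (5 genes) 4 and 3, neural markers (8 genes) 3 and 1, neural crest and Schwann cell markers (5 genes) 1 and 1, heart muscle markers (6 genes) 1 and 1, and epithelial markers (8 genes, Cdh1 and Epcam among them) none in either. The MEF lists therefore differ in these marker counts as well as in genotype, and the part of this in the MEF values below was not tested.

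By their medians, Fox and Sox genes were shorter and farther from other genes than most. Their median length was 5300 bp against 17630 bp over all genes, from 867 bp (Foxe3) to 953553 bp (Sox5), and 17 of them (29.3%) have a single exon against 5.72% of all genes. The nearest other protein-coding gene lay a median of 17900 bp away, against 4134 bp over all genes, although 19 of the 58 lay within 5000 bp of one and 21 were at least 10000 bp long. Their promoter windows were rich in CpG, with a median GC content of 59.5% against 51.4% and a median ratio of observed to expected CpG of 0.742 against 0.486. These features were not used to choose them.

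RefSeq promoter sequences (GRCm38.p6) were matched by symbol for 38 of the 58 genes, with 47 starts. In the 250 bp upstream of these starts a GC box (GGGCGG, either strand) was present at 61.7% against 33.0% of 31396 autosomal starts, a CCAAT box (CCAAT, either strand) at 44.7% against 33.7%, and a TATA box (TATAAA, either strand) at 6.38% against 12.4%. The median number of CG was 17 against 6. Upstream stretches are printed for 6 genes whose peaks carry the results below. The Sox C genes Sox4, Sox11 and Sox12 had 3 different Pol II patterns, Foxc1 had a promoter peak of lower fold and Foxd1 none in KO MEFs, and Foxd3 had a peak in mESCs alone. Each runs 5′ to 3′ on the gene's strand and ends at the base before the more upstream of the RefSeq and GENCODE starts, and capitals mark matches to the motifs above.
Sox4: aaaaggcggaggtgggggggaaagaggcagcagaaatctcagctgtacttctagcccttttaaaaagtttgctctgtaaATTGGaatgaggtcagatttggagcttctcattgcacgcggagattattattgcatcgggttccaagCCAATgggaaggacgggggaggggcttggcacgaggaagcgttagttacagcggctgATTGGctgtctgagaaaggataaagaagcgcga
Sox11: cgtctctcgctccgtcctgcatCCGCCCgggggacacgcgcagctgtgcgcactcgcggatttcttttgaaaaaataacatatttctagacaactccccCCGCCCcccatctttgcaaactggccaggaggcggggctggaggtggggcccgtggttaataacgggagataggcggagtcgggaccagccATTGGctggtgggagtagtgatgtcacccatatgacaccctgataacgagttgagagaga
Sox12: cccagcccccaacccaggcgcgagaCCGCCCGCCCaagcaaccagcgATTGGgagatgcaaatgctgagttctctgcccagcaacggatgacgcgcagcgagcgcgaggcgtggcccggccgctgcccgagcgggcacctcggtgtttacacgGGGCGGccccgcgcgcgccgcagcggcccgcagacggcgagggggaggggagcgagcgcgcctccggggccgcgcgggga
Foxc1: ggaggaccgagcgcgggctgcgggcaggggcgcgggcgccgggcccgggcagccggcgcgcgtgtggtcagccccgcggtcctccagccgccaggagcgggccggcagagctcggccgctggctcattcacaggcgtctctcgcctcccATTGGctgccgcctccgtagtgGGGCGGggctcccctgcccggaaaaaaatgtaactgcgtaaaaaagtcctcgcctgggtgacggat
Foxd1: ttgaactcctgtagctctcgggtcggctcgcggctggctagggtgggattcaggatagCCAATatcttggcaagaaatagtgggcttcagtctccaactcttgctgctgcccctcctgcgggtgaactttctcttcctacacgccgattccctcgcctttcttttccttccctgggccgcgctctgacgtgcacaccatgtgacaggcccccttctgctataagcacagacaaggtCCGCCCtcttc
Foxd3: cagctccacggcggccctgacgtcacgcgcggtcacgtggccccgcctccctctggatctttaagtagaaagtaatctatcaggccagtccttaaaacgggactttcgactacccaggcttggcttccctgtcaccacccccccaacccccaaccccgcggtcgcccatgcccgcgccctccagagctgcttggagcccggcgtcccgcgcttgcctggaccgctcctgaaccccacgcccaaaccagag

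The stretches lie at chr13:28953714-28953949 (Sox4, minus strand), chr12:27342719-27342968 (Sox11, minus), chr2:152398064-152398296 (Sox12, minus), chr13:31806396-31806632 (Foxc1, plus), chr13:98353995-98354241 (Foxd1, plus) and chr4:99656049-99656298 (Foxd3, plus), outside every annotated exon. The 3 Sox C promoters differ in composition. Sox4 holds 3 CCAAT matches, no GC box and 10 CG in 236 bp at a GC content of 50.0%, Sox11 holds 1 CCAAT match, 2 GC boxes and 17 CG in 250 bp, and Sox12 holds 1 CCAAT match, 3 GC boxes of which 2 overlap, and 35 CG in 233 bp at 76.0%. Foxc1 (72.6% GC) and Foxd1 (57.1%) hold 1 CCAAT match and 1 GC box each. Foxd3 (65.6%) holds none of the 3 motifs, and TATAAA is in none of the 6 stretches.

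The question for Pol II was whether the same Fox and Sox promoters carry the polymerase with and without ATXN7L3. In WT mESCs 18 of the 58 genes (31.0%) had a promoter call, against 35.3% of all genes, and in KO mESCs 15 (25.9%), against 32.1%. In WT MEFs 29 (50.0%) had one, against 55.3%, and in KO MEFs 24 (41.4%), against 52.3%. By family, 9 and 10 of 41 Fox genes (21.95% and 24.4%) and 9 and 5 of 17 Sox genes (52.9% and 29.4%) had a promoter call in WT and KO mESCs. In WT and KO MEFs it was 20 and 18 Fox genes and 9 and 6 Sox genes. Body calls were also fewer in the KO lists, 16 (27.6%) and 9 (15.5%) in WT and KO mESCs, against 20.9% and 13.6% of all genes, and 24 (41.4%) and 14 (24.1%) in WT and KO MEFs, against 42.2% and 33.9%. In mESCs these were 9 and 8 Fox genes and 7 and 1 Sox genes. With a peak over at least 10% of the body required, the shares with a body call in WT and KO became 10.3% and 3.45% (mESCs) and 15.5% and 5.17% (MEFs). When the longer list of each pair was shortened to the length of the other by p-value, promoter calls in mESCs were equal at 25.9% in both genotypes, and in MEFs they were 48.3% in WT and 41.4% in KO.

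**Figure D1:**
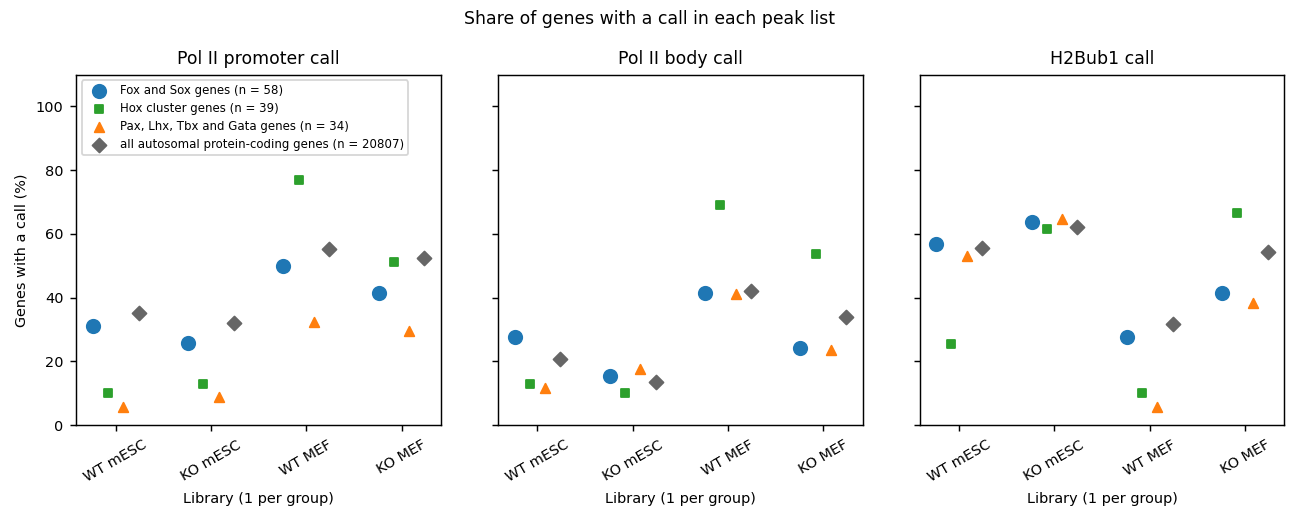
Percentage of genes with a Pol II promoter call, a Pol II body call or an H2Bub1 call (y axis, %) in each library (x axis, 1 library per group), for the 58 Fox and Sox genes, 39 Hox cluster genes, 34 Pax, Lhx, Tbx and Gata genes and all 20807 autosomal protein-coding genes. The Fox and Sox genes lie at or below all genes for promoter calls in each library (31.0% against 35.3% in WT mESCs, 41.4% against 52.3% in KO MEFs), and above the Pax, Lhx, Tbx and Gata genes.

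A promoter call in all 4 Pol II lists was held by 6 of 58 genes (10.3%, against 26.1% of all genes). Foxo3, a transcription factor that AKT signalling keeps out of the nucleus, had folds of 7.70 and 6.43 in WT and KO mESCs and 16.9 and 17.9 in WT and KO MEFs. Its mESC peaks had their summits at -1246 bp and -1428 bp from the TSS and its MEF peaks at 73 bp and 29 bp downstream of it. Foxo1, the related factor of insulin-responsive tissues, had 4.30 and 3.05 in mESCs and 16.8 and 14.2 in MEFs. Foxn2 and Foxn3, a pair of related forkhead genes, had 4.65 and 4.91, and 4.01 and 3.91, in mESCs, and 10.1 and 12.4, and 13.0 and 9.50, in MEFs. Sox12 had 5.42 and 3.80 in mESCs and 10.7 and 15.2 in MEFs, and Sox13 had 3.57 and 4.19 in mESCs and 5.57 and 3.75 in MEFs. The KO fold lay above the WT fold in some of these and below it in others.

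At the other end, 20 genes (34.5%, against 41.1% of all genes) had no promoter call in any list. Among them were the endothelial genes Sox7 and Sox17, the neural crest gene Sox10, the endoderm genes Foxa1 and Foxa2, the thymus gene Foxn1, the ear genes Foxi1 and Foxi3, and Foxj3 and Sox6. For Foxj3 the TSS of the gene record was not the one in use: with every annotated start of a protein-coding transcript (7 of them), it had folds of 7.15 and 9.46 in WT and KO mESCs and 20.6 and 14.7 in WT and KO MEFs. Sox6, a partner of Sox9 in cartilage, had 4.51 and 11.4 in WT and KO MEFs at another of its 8 starts.

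**Figure D2:**
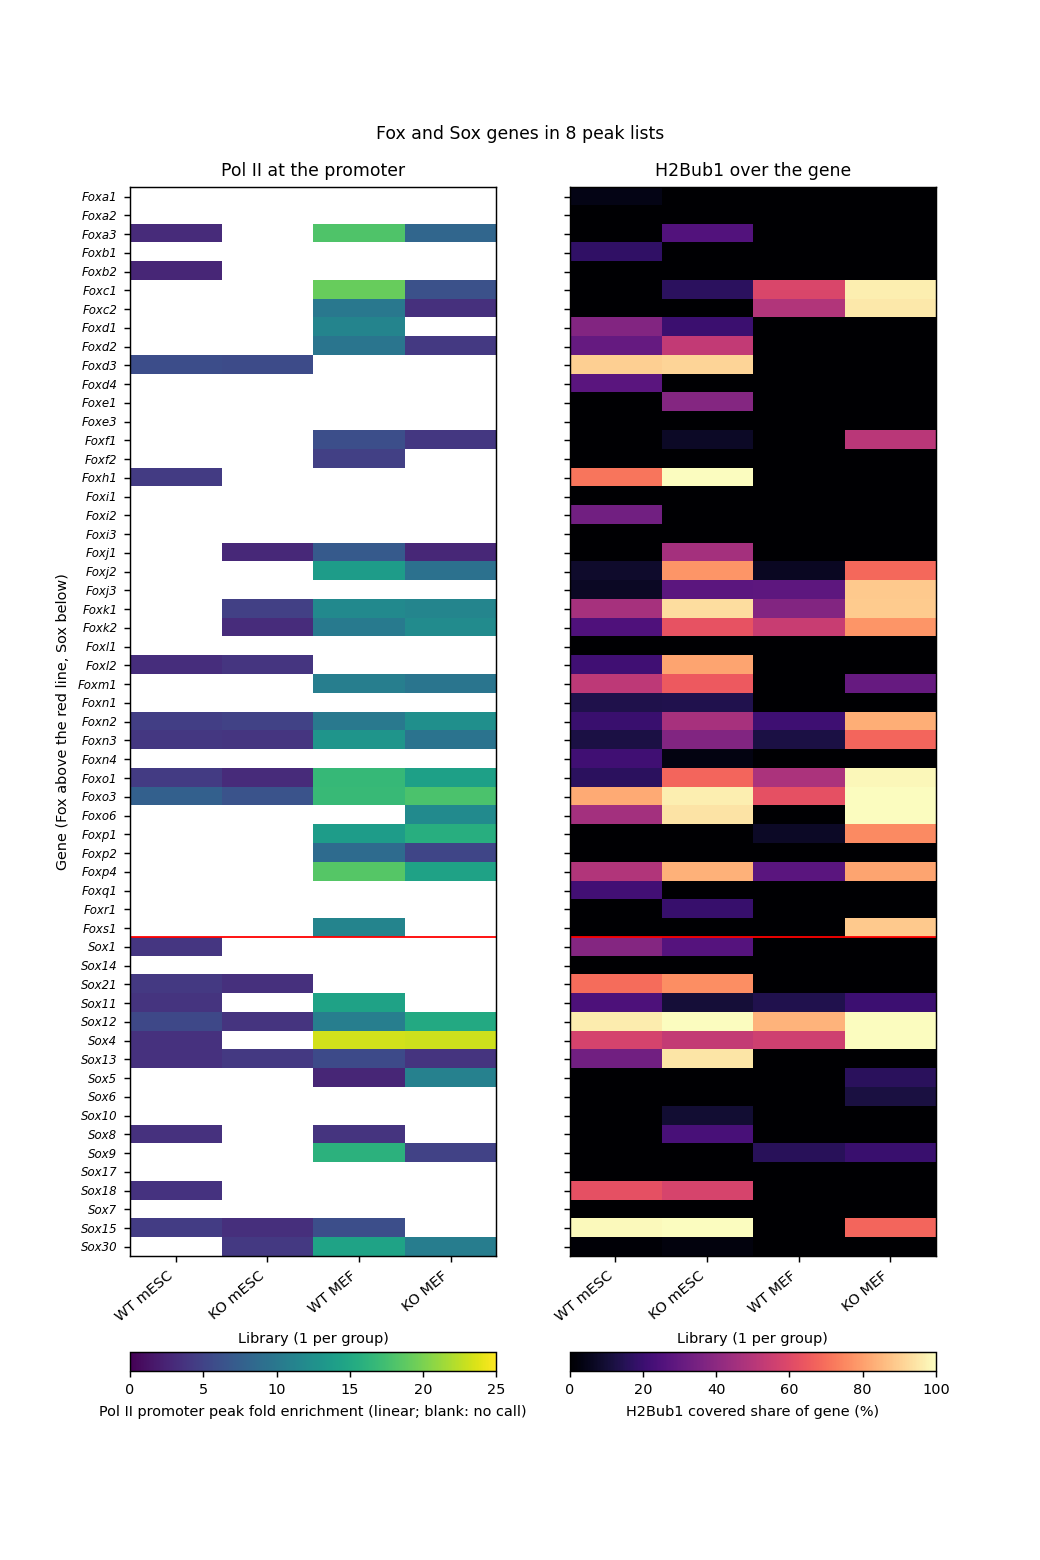
The Fox and Sox genes (y axis, 1 of the 58 not drawn, Fox above and Sox below the red line) in each library (x axis), as the fold of its highest Pol II promoter peak (left, linear colour scale, blank where no peak was called) and as the percentage of the gene under H2Bub1 peaks (right). Foxo1, Foxo3, Foxn2, Foxn3, Sox12 and Sox13 are filled in all 4 Pol II columns, and Foxd3, Foxl2 and Sox21 in the mESC columns alone.

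In mESCs, 8 genes (13.8%, against 8.04% of all genes) had a promoter call in WT only and 5 (8.62%, against 4.85%) in KO only. Of the 18 genes called in WT, 8 (44.4%) thus had no call in KO, against 22.8% of all genes called in WT. The highest of the 8 was Foxh1, the SMAD partner of Nodal signalling, with a fold of 4.30. Its peak began 66 bp from the TSS, and the gene Kifc2 lies 29 bp from Foxh1. Sox1, a neural plate gene, had 3.95, Sox11 3.73, Sox18 3.68, Sox4 3.58, and Sox8, a neural crest gene, 3.53. Foxa3, a liver gene, had 3.05 in a peak that also held the start of Sympk, and Foxb2 had 2.73. All 8 folds were below the median of 4.39 over all genes called in WT mESCs. The peaks at Sox1, Sox18 and Foxa3 began 890 bp, 796 bp and 662 bp from the TSS. With lists of equal length, WT alone and KO alone each had 6 of the 58 genes (10.3%).

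The genes named here with a call in KO mESCs only had folds from 2.89 to 4.73, beside a median of 4.53 over all genes called in KO mESCs. Foxk1, a regulator of metabolism in starved cells, had 4.73, Sox30, a testis gene, 4.14, Foxk2 3.21, and Foxj1, the regulator of motile cilia, 2.89. Among the 10 genes called in both genotypes, the ratio of KO to WT fold had a median of 0.910 and ran from 0.701 to 1.18, beside a median of 1.02 over all genes. None of the 10 had a ratio of 0.5 or less, nor of 2 or more, against 1.68% and 1.73% of all genes called in both.

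Of the promoters called in both mESC lists, 3 had no call in either MEF list. Foxd3, which keeps stem cells undifferentiated and later marks neural crest, had folds of 5.87 and 5.68 in WT and KO mESCs, and Pol II peaks covered 56.8% and 73.5% of its body. The summits of the peaks with these folds lay 1481 bp and 1540 bp downstream of the TSS, beyond the promoter window. The Pol II peak nearest the Foxd3 TSS was 62 bp away in WT, and the KO peak covered the TSS. Sox21, a neural gene, had 4.11 and 3.51, and Foxl2, the ovary and eyelid gene, 3.30 and 3.81. All 3 are genes of a single exon. Sox15 had 4.42 and 3.41 in mESCs and is described with the MEF lists below.

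**Figure D3:**
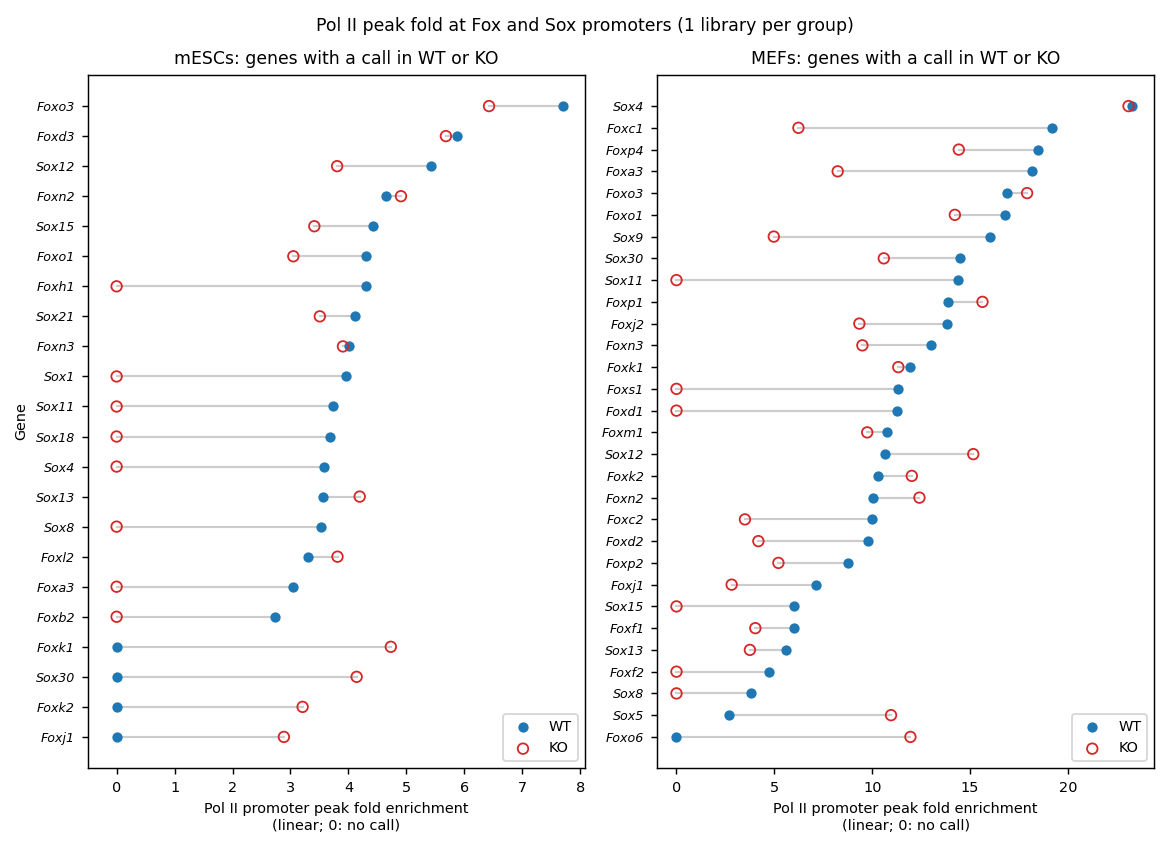
Fold of the highest Pol II promoter peak (x axis, linear, 0 where no peak was called) for genes with a call in WT or KO (y axis), in mESCs (left, 1 gene not drawn) and MEFs (right), with filled points for WT and open points for KO. In MEFs, Sox11 (14.4), Foxs1 (11.3) and Foxd1 (11.3) have a WT point and no KO call, the KO points of Foxc1 and Sox9 lie far to the left of their WT points, and those of Sox5 and Foxo6 to the right.

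In MEFs, 6 genes (10.3%, against 4.43% of all genes) had a promoter call in WT only and 1 (1.72%, against 1.51%) in KO only. Of the 29 genes called in WT, 6 (20.7%) had no call in KO, against 8.01% of all genes called in WT. Sox11 (chr12:27334264-27342574, minus strand, a single exon) had a fold of 14.4 in WT MEFs from a peak of 2193 bp with its summit 78 bp upstream of the TSS, and Pol II peaks covered 29.9% of its body. In KO MEFs the nearest Pol II peak was 873104 bp away. Foxd1 (chr13:98354242-98359305, plus strand), a gene of kidney stroma and its pericyte lineage, had 11.3 in WT MEFs, and the nearest KO peak was 36582 bp away.

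Foxs1 (chr2:152931898-152933208, minus strand), known from pericytes and vessel walls, had 11.3 in WT MEFs, but the summit of that peak of 9225 bp lay 5630 bp downstream of the TSS, beyond the end of the gene. In KO MEFs the nearest peak to the Foxs1 TSS was 1821 bp away. Sox15, a gene of stem cells and trophoblast that overlaps Mpdu1, had 6.01 in WT MEFs and its nearest KO peak lay 2215 bp away. Foxf2, a gene of gut and brain-vessel mesenchyme, had 4.72, and Sox8 had 3.78. The nearest KO MEF peaks to Sox8 and Foxf2 were 8131 bp and 180322 bp away.

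The 1 gene with a promoter call in KO MEFs only was Foxo6 (chr4:120267079-120287349, minus strand), the Foxo gene best known from brain. Its fold there was 11.95, from a peak of 1037 bp with its summit at -277 bp from the TSS, and Pol II peaks covered 18.3% of its body. In WT MEFs the nearest peak to its TSS was 18497 bp away, and no mESC list had a call.

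Among the 23 genes called in both MEF lists the KO to WT ratio of fold had a median of 0.732, beside 0.856 over all genes. Of the 23 ratios 17 were under 1, against 7135 of 10576 over all genes called in both. A ratio of 0.5 or less was seen at 6 of the 23 (26.1%, against 7.27% of all genes called in both). Sox9, the regulator of cartilage, had 16.02 in WT and 4.97 in KO MEFs (ratio 0.310), and its WT peak was 2696 bp wide and its KO peak 551 bp. Foxc1 (chr13:31806633-31812476, plus strand), a gene of mesenchyme, bone and vessels, had 19.2 in WT and 6.23 in KO (0.324), and Pol II peaks covered 95.3% of its body in WT MEFs and none of it in KO MEFs. Its paralogue Foxc2 had 9.97 and 3.50 (0.351), with 46.2% and none of the body covered. Foxj1 (7.13 and 2.82), Foxd2 (9.76 and 4.18) and Foxa3 (18.2 and 8.24, in a peak that holds the start of Sympk) made up the 6.

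Of the 23, 1 (4.35%, against 1.28% of all genes) had a ratio of 2 or more, Sox5, with 2.70 in WT and 11.0 in KO MEFs (ratio 4.06). Sox5 works with Sox6 and Sox9 in cartilage, and this peak lies at the start of its gene record, which is over 1000 bp from each of its 7 coding transcript starts. Sox4 (chr13:28948919-28953713, minus strand, a single exon) had the highest fold of the 58 genes in both MEF lists, 23.2 in WT and 23.1 in KO, with 95.8% and 77.0% of its body under Pol II peaks. The Sox C genes thus differed in MEFs, as Sox4 had nearly the same fold in both lists, Sox12 had 10.7 and 15.2, and Sox11 had 14.4 in WT and no call in KO.

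Other members called in both MEF lists had ratios above 0.5. The Foxp genes, which act in muscle, lung, brain and lymphocytes, had 13.9 and 15.6 (Foxp1), 8.78 and 5.21 (Foxp2) and 18.5 and 14.4 (Foxp4) in WT and KO. Foxk1 had 11.9 and 11.3, Foxk2 10.3 and 12.02, Foxj2 13.8 and 9.34, and Foxf1, a gene of lung and gut mesenchyme, 5.98 and 4.03. Foxm1, the driver of mitotic genes, had 10.7 and 9.74 from peaks that also hold the start of Rhno1, 56 bp from its own. Sox30 had 14.5 and 10.6.

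The question for H2Bub1 was how much of each Fox and Sox gene lies under the mark when ATXN7L3 is absent. In WT mESCs 33 of the 58 genes (56.9%, against 55.7% of all genes) had an H2Bub1 call and in KO mESCs 37 (63.8%, against 62.1%). Over the 58 genes the median covered share in WT and KO mESCs was 10.2% and 18.0%, beside 1.31% and 6.66% over all genes, and it was 30.2% and 52.9% over those with a call, beside 15.4% and 31.7% over all genes with a call. The share was higher in KO at 31 genes (53.4%, against 54.2% of all genes) and lower at 11 (19.0%, against 9.83%). With the lists made equally long, 56.9% had a call in both genotypes. With only peaks of a −log10 q of at least 3, calls were 19.0% in WT and 36.2% in KO mESCs and both medians over the 58 genes were 0. The 17 Sox genes had medians of 1.05% (WT) and 10.3% (KO), with 8 genes higher and 4 lower in KO. Over those with a call it was 57.5% for 9 genes in WT and 39.7% for 12 in KO, which are different sets of genes.

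The genes with the largest KO minus WT differences in mESCs are given first. Foxj2 was covered over 8.25% in WT and 77.9% in KO, Sox13 over 33.2% and 94.7%, Foxl2 over 21.1% and 81.1%, and Foxo1 over 16.5% and 68.0%. Foxo6 had 45.4% and 94.3%, Foxk1 46.3% and 93.2%, Foxk2 24.98% and 63.0%, and Foxp4 48.9% and 84.0%. At Foxj1 and Foxe1, a thyroid gene, no base was covered in WT and 45.7% and 38.2% in KO. A KO call without a WT call was seen at 9 genes (15.5%, against 9.53% of all genes), the other 7 being Foxa3 (25.5%), Sox8 (23.1%), Foxr1 (19.3%), Foxc1 (16.7%), Sox10 (9.55%), Foxf1 (7.29%) and Sox6 (0.194%). Some shares were high in both lists. Sox12 had 96.5% and 100%, Sox15 98.9% and 100%, Foxd3 90.2% and 91.3%, Foxo3 82.3% and 96.6%, while Foxh1 had 71.4% and 100%.

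Of the 58 genes, 11 had a lower H2Bub1 share in KO than in WT mESCs. A call in WT only was seen at 5 (8.62%, against 3.13% of all genes), Foxi2 with 33.5%, Foxd4 with 27.4%, Foxq1 with 21.7%, Foxb1 with 17.7% and Foxa1 with 4.23% of the gene covered in WT. Each of these had 1 short WT peak, from 266 bp (Foxa1) to 1112 bp (Foxi2), with folds from 2.29 (Foxb1) to 2.77 (Foxa1). Foxn4, a retina gene, had 21.3% and 3.33%, Foxd1 37.8% and 19.96%, Sox1 38.1% and 26.2%, and Sox11 24.3% and 10.3%. At Sox18 (62.1% and 57.9%) and Sox4 (57.5% and 53.2%) the shares differed by under 5 points. The fold of the H2Bub1 peaks of a gene, averaged over them by width, was at Sox4 3.94 in WT and 2.84 in KO mESCs, and at Sox11 3.20 and 2.53.

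**Figure D4:**
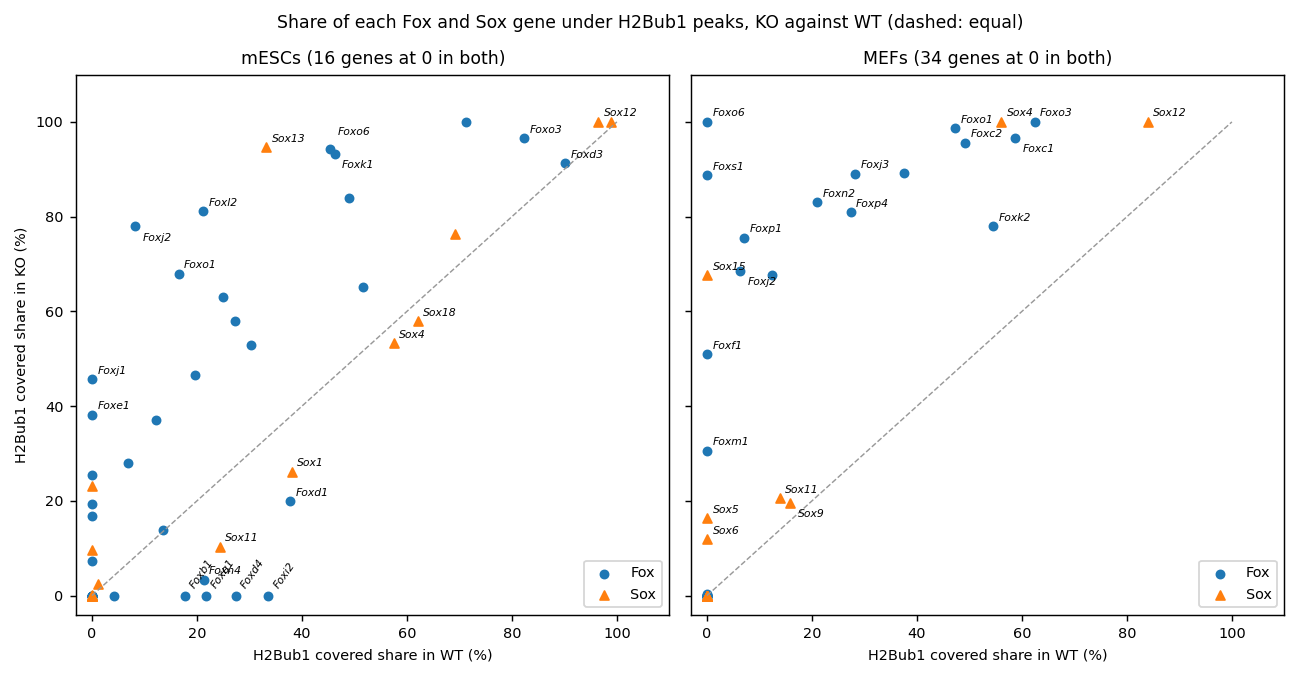
Percentage of each Fox (circles) and Sox (triangles) gene under H2Bub1 peaks in KO (y axis) against WT (x axis), in mESCs (left) and MEFs (right), with the dashed line at equal shares and 1 library per group. In mESCs 31 genes lie above the line and 11 below it, and in MEFs 24 lie above it, none below and 34 at 0 in both.

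All 11 genes with a lower share lacked a Pol II promoter call in KO mESCs, as did 43 of the 58 genes. Over all genes, 2045 had a lower share. Of these, 252 had a promoter call in WT only, 1143 in neither genotype, 592 in both and 58 in KO only. Of the 8 genes with a Pol II call in WT mESCs only, 4 (Sox1, Sox4, Sox11 and Sox18) had a lower H2Bub1 share in KO, 3 (Foxh1, Foxa3 and Sox8) a higher one and Foxb2 no H2Bub1 in either, and over all genes of that kind 15.1% had a lower share and 78.4% a higher one. Of the 15 genes with a Pol II call in KO, 10 of 10 called in both genotypes and 5 of 5 called in KO only had a higher share, against 84.7% and 91.0% over all genes of these kinds. Where neither genotype had a Pol II call, 13 of 35 genes were higher and 7 lower, against 34.1% and 9.17% over all such genes.

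In WT MEFs 16 of the 58 genes (27.6%, against 31.7% of all genes) had an H2Bub1 call, and in KO MEFs 24 (41.4%, against 54.3%). The share was higher in KO at 24 genes (41.4%, against 53.8%) and lower at none (against 0.529%), while 34 genes had no H2Bub1 in either list. Over genes with a call the median share was 32.9% in WT and 79.4% in KO, beside 14.7% and 51.1% over all genes with a call. The Fox genes with a call had medians of 32.9% over 12 genes and 83.1% over 17, and the Sox genes 35.97% over 4 and 20.5% over 7, while no single Fox or Sox gene had a lower share in KO MEFs. With only peaks of a −log10 q of at least 3, calls were 6.90% in WT and 36.2% in KO MEFs.

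In KO MEFs only, 8 genes (13.8%, against 22.9% of all genes) had an H2Bub1 call, and none had one in WT only (against 0.293%). Foxo6 had no covered base in WT and 100% in KO, under 1 peak of 21800 bp. Foxs1 had 88.7% in KO from 1 peak of 1892 bp with a fold of 1.94. Sox15 had 67.6%, under a peak of 29490 bp that runs far past this gene of 1414 bp. Foxf1 had 50.9%, Foxm1 30.6%, Sox5 16.3%, Sox6 11.9% and Foxp2 0.319%. Foxs1 and Sox15 had no Pol II promoter call in KO MEFs, while Foxo6, Foxf1, Foxm1, Sox5 and Foxp2 had one.

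Among the genes called in both lists were 10 genes of at least 10000 bp. Foxp1 had 7.04% in WT and 75.5% in KO MEFs, with 33 peaks in WT and 31 in KO, the peak with the longest overlap in KO being 184875 bp wide. Foxj2 had 6.37% and 68.5%, Foxn2 21.0% and 83.1%, Foxj3 28.2% and 89.1%, Foxn3 12.4% and 67.7%, Foxp4 27.4% and 80.9%, and Foxk1 37.6% and 89.2%. Foxo1 had 47.3% and 98.6%, in 11 peaks in WT whereas 1 KO peak of 84371 bp held nearly all of the gene, and Foxo3 62.4% and 100%, in 14 peaks and in 1 of 96141 bp. Foxk2, with 54.5% and 78.0%, had the smallest difference among these.

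Of the mesenchymal genes with a lower Pol II fold or no Pol II call in KO MEFs, Foxc1, Foxc2, Foxf1, Foxs1 and Sox9 had a higher H2Bub1 share in KO, while Foxd1, Foxd2 and Foxf2 had no H2Bub1 in either MEF list. Foxd1, Foxf2 and Foxs1 had a Pol II call in WT only. Over all genes, the share was higher in KO at 93.3% of those with a Pol II call in both MEF lists and at 23.0% of those called in WT only. Foxc1 had 58.7% in WT and 96.7% in KO, and Foxc2 had 49.2% and 95.6%. The mean fold of the H2Bub1 peaks was 3.49 and 3.27 at Foxc1 and 2.71 and 3.68 at Foxc2. Sox9 had 15.9% and 19.6%, and Sox11, without a KO Pol II promoter call, 13.9% and 20.5%, and their mean folds were lower in KO (3.08 and 2.60 at Sox9, 3.11 and 2.22 at Sox11). Sox4, whose Pol II fold was alike in both, had 56.1% and 100%, and the fold of its H2Bub1 peak was 3.12 in WT and 6.40 in KO. Sox12 had 84.0% and 100%.

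The share was also read by exon number and length. In mESCs the 17 single-exon genes split into 6 higher and 6 lower in KO, with medians of 21.7% and 16.7%, the 20 shorter genes of 2 or more exons into 8 higher and 4 lower, and the 21 genes of at least 10000 bp into 17 higher and 1 lower, with medians of 13.6% and 37.1%. In MEFs 5, 4 and 15 genes of these classes were higher in KO and none lower, and the long genes had a median of 67.7% in KO. Over all genes the share with a higher KO value also differed by class, with 20%, 37.4% and 64.8% higher and 9.33%, 10.8% and 9.44% lower in mESCs, and 21.8%, 38.9% and 63.3% higher in MEFs.

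H2Bub1 was set beside Pol II in each library. In WT mESCs 15 of 18 genes with a Pol II promoter call (83.3%, against 91.9% of all such genes) and 18 of 40 without one (45.0%, against 36.0%) had an H2Bub1 call, and in KO mESCs 15 of 15 (100%, against 97.8%) and 22 of 43 (51.2%, against 45.2%). In WT MEFs 15 of 29 with a promoter call (51.7%, against 53.4%) and 1 of 29 without one (3.45%, against 4.81%) had an H2Bub1 call, and in KO MEFs 19 of 24 (79.2%, against 93.3%) and 5 of 34 (14.7%, against 11.3%). The 5 genes with Pol II and no H2Bub1 in KO MEFs were Sox13, Sox30, Foxj1, Foxd2 and Foxa3. The 5 with H2Bub1 and no promoter call were Foxs1, Sox11, Sox15, Foxj3 and Sox6, of which Foxj3 and Sox6 had a Pol II peak at another annotated start.

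The comparison of cell types asked which of these regulators carry Pol II in stem cells and which in fibroblasts. With WT lists, 7 genes (12.1%, against 1.90% of all genes) had a promoter call in mESCs only and 18 (31.0%, against 21.9%) in MEFs only, and with KO lists 5 (8.62%, against 1.61%) and 14 (24.1%, against 21.9%). The 7 in WT were Foxb2, Foxd3, Foxh1, Foxl2, Sox1, Sox18 and Sox21, and those in KO included Foxd3, Foxl2, Sox15 and Sox21. Foxd3, Foxl2 and Sox21 are common to both. The MEF calls include mesenchymal genes (Foxc1, Foxc2, Foxd1, Foxd2, Foxf1, Foxf2, Foxs1 and Sox9) that had no promoter call in either mESC list. Foxl1, also a mesenchymal gene, had no promoter call in any list. For H2Bub1, 12 genes (20.7%, against 29.0% of all genes) had a call in all 4 lists and 10 (17.2%, against 31.4%) in none.

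In the KO MEF list 9 of 10 fibroblast markers had a lower fold than in the WT list and Dcn a higher one (8.66 in WT, 13.5 in KO). Over all genes called in both MEF lists, 7135 of 10576 had a lower fold in KO. Of the 6 mesothelial markers, a list drawn up with earlier results of these data known, 5 had a Pol II call in KO MEFs and none in WT MEFs. Any link between these markers and the Fox and Sox values above was not tested. The list of 14 cartilage genes known as Sox9 targets had 8 promoter calls in WT and 3 in KO MEFs (against 55.3% and 52.3% of all genes), with 5 of the 8 in WT only, against 8.01% of all genes called in WT (Col11a1, Col2a1, Hapln1, Matn3 and Matn4). It had 2 and 1 promoter calls in WT and KO mESCs, against 35.3% and 32.1% of all genes. The list had no H2Bub1 call in either MEF list, against 31.7% and 54.3% of all genes in WT and KO MEFs. In mESCs its H2Bub1 share was higher in KO at 2 genes and lower at 6, against 54.2% and 9.83% of all genes. Col11a2 had 11.5 in WT and 4.57 in KO MEFs, Col9a3 8.17 and 3.30 and Comp 6.55 and 3.61.

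Genes around the Foxo factors were called in most lists. Over all genes with a Pol II promoter call in both genotypes, the H2Bub1 share was higher in KO at 84.7% and lower at 10.45% in mESCs, and higher at 93.3% in MEFs, and a promoter call was held by 35.3% and 32.1% of all genes in WT and KO mESCs and 55.3% and 52.3% in WT and KO MEFs. The list counts are to be read beside these. Of 18 regulators between AKT and FOXO proteins (kinases, 14-3-3 proteins and the export receptor Xpo1 among them), 14 and 12 had a promoter call in WT and KO mESCs and 16 and 15 in WT and KO MEFs, and 18 of 18 had a higher H2Bub1 share in KO in both cell types. Of 23 FOXO targets, 17 and 18 had a promoter call in WT and KO mESCs and 22 in both MEF lists, with a higher share at 21 in mESCs and 22 in MEFs. In WT and KO MEFs, H2Bub1 covered 13.0% and 100% of Cdkn1b, a cell cycle inhibitor, and 25.4% and 93.4% of Bcl2l11, which promotes cell death. Cited2 was the 1 gene of the list with a lower KO share in mESCs, 100% and 84.7%. The 15 FOXM1 targets, mostly genes of mitosis, had 12 promoter calls in both mESC lists and 13 in both MEF lists. Their H2Bub1 share was higher in KO at 9 and lower at 5 in mESCs (Ccnb2, Kif20a, Nek2, Plk1 and Top2a), and higher at 15 of 15 in MEFs.

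Members lie within 100000 bp of each other in 3 loci. The locus of Foxf1, Foxc2 and Foxl1, a set of mesenchymal genes, spans 46259 bp (chr8:121084386-121130644) and holds Mthfsd between Foxf1 and Foxc2. Pol II peaks covered 643 bp and 434 bp of it in WT and KO mESCs and 12129 bp and 8884 bp in WT and KO MEFs. H2Bub1 peaks covered 1529 bp and 3642 bp in mESCs and 2359 bp and 13706 bp in MEFs. The Pol II peak on the Foxc2 start was 2016 bp wide with a fold of 9.97 in WT MEFs and 619 bp wide with a fold of 3.50 in KO MEFs. Between Foxc2 and Foxl1, from 8142 bp to 10104 bp downstream of the Foxc2 TSS, WT MEFs had a Pol II peak with a fold of 14.3, and KO MEFs had one of 997 bp with a fold of 6.07. At the start of Mthfsd the WT MEF fold was 15.6 and the KO fold 19.7. The H2Bub1 peak on Foxc2 measured 1341 bp (WT MEFs) and 4132 bp (KO MEFs), and the latter ended before Foxl1, which had neither mark at its gene in any list.

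**Figure D5:**
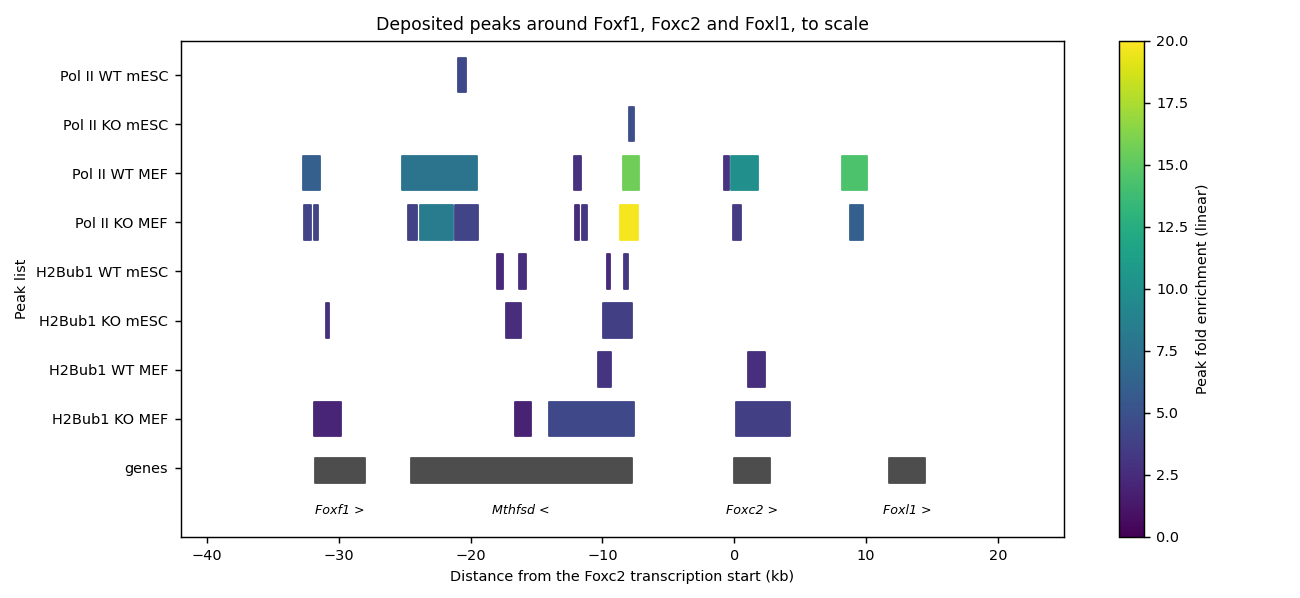
Deposited peaks of the 8 lists (rows, coloured by linear fold) around Foxf1, Foxc2 and Foxl1, by distance from the Foxc2 TSS (x axis, kb), with genes in grey and arrows for their strand (Gm20388, a record of 4434882 bp that spans the window, is left out). In MEFs the WT Pol II peak on Foxc2 is 2016 bp wide and the KO peak 619 bp, and the H2Bub1 peaks there are 1341 bp and 4132 bp.

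The locus of Foxq1 and Foxf2 (75270 bp on chromosome 13) held 1 Pol II peak, that of WT MEFs at Foxf2 (856 bp), and 1 H2Bub1 peak, that of WT mESCs at Foxq1 (1051 bp), and none in the KO lists. Foxd2 and Foxe3 lie in 19732 bp on chromosome 4. Pol II peaks lay on Foxd2 in WT and KO MEFs (1145 bp and 972 bp) and H2Bub1 peaks in WT and KO mESCs (783 bp and 1372 bp), and Foxe3 had none.

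Beside other families of developmental regulators, a larger share of the Fox and Sox genes had a Pol II promoter call in each mESC list, a difference that was not tested. The 39 Hox cluster genes had 4 promoter calls (10.3%) in WT and 5 (12.8%) in KO mESCs and 30 (76.9%) and 20 (51.3%) in WT and KO MEFs. The 34 Pax, Lhx, Tbx and Gata genes had 2 (5.88%) and 3 (8.82%) in mESCs and 11 (32.4%) and 10 (29.4%) in MEFs. Of the genes called in WT MEFs, 36.7% of 30 Hox genes and 36.4% of 11 genes of the Pax, Lhx, Tbx and Gata families had no call in KO, beside 20.7% of the 29 Fox and Sox genes and 8.01% of all genes.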

How the data were processed

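Members and gene lists were chosen with earlier results of these data known. The submitters' processing notes name bcl2fastq 2.17.1.14, Bowtie 1.0.0, MACS2 2.1.1.20160309 and the build mm10. The authors called peaks in each library, broad for H2Bub1 and narrow for Pol II, and the control and thresholds are not given in the sources used here. The deposited fold is a linear ratio over local background. The other values deposited by the authors are the −log10 p and −log10 q of each peak, and the lowest −log10 q was 1.33 in the Pol II lists and 1.00 in the H2Bub1 lists. Peak number and width grow with read depth, so every count and share depends on it.

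Peaks were set 1-based against GENCODE M21 (the same build) in Python 3.11.15 with numpy 2.4.6, pandas 2.3.3, scipy 1.17.1 and pysam 0.24.0. Calls were checked on simulated peaks. The 8 input and serine 2 phosphorylation samples were not used. The single values of 1 member are not reported here. Genes were named by rule: those called in 1 genotype only or in all lists, those with the largest H2Bub1 differences or a share lower in KO, those at shared loci, and the main family groups. The results were recomputed with peaks of −log10 q 3 or more, lists of equal length, a window from 100 bp upstream to 300 bp downstream, any annotated start, overlaps of 200 bp or 10%, gene bodies extended by 1000 bp, and the 39 members at least 5000 bp from other genes.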

Additional observations from a re-analysis of the deposited data

Results flagged for a closer look

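Sox11 was singled out because its H2Bub1 share differed between KO and WT in opposite directions in the 2 cell types, by at least 5 points in each. In mESCs the KO share was lower, with a difference of -13.99 points, and in MEFs it was higher by 6.68 points. Each direction rests on 1 library per genotype, and the difference between the cell types was not tested. Of the 58 genes, 2 had opposite directions of any size, the other being Sox4, of the same Sox C group, with -4.23 points in mESCs and 43.9 points in MEFs. The same count was not made over all genes, so whether it is high or low is not known.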

How the results depend on the processing

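Of 132 recomputed values, 122 stayed near those reported (counts within 1.5 times, medians within their exact interval) and 10 did not. With only peaks of a −log10 q of at least 3, H2Bub1 calls were 19.0% and 36.2% of members in WT and KO mESCs and 6.90% in WT MEFs, and the WT and KO mESC median shares were both 0, so their order was lost. With larger overlaps, Pol II body calls were 10.3% and 3.45% in WT and KO mESCs and 15.5% and 5.17% in WT and KO MEFs. With lists of equal length, 3.45% of members had a promoter call in KO MEFs only. Among members at least 5000 bp from other genes, 2.56% had one in KO mESCs only, and H2Bub1 calls in WT and KO mESCs were equal (56.4%), as they were with lists of equal length (56.9%). No paired analysis was possible because each group has 1 library. Depth is unknown, so a gene without a peak may lie under the detection limit of its library. The cause of these differences was not tested.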
